A study of Mus musculus with 4 samples.

Results

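Khdc3, Ooep, Dppa5a, Dppa3, Dppa4 and Dppa2 are genes of the mouse egg, early embryo and pluripotent cell, and they were measured here in embryonic stem (ES) cells that had received short hairpin RNAs (shRNAs) against the transcription factors Esrrb and Sox2. The 6 genes were chosen by symbol, with older names accepted (2410004A20Rik for Khdc3), and with results of these arrays already known, the fall of Khdc3 with the Esrrb hairpin among them. Their values are therefore given as a description, and no p-value of any of them is printed. A gene is written as called where limma's adjusted p over all genes tested was under 0.05, and for these genes a call is part of the description and supports nothing. Of the 6 genes, 5 had probes on the array, 9 probes among 25697. All 5 passed the detection filter, through 7 of the 9 probes, and stand among 8248 genes tested. Dppa2 was not analysed here.

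The cells were labelled E14, a label given under developmental stage, and were grown under normal ES conditions in all groups. Each group was transfected by lipofection with 1 of 4 hairpin loads and kept under puromycin for 2 days before RNA was taken: a hairpin against GFP (the control), against Esrrb, against Sox2, or against Esrrb and Sox2 together (the dual group, labelled EsrrbSox2). Each group had 4 one-colour Illumina bead arrays, lettered A to D, 16 in all. The sources used here give neither the hairpin sequences nor the number of hairpins per gene. The labels number the repeats but do not say whether they were separate transfections, so errors and p-values cover array-to-array spread, which may be technical, and nothing wider.

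Khdc3 (also called Filia) and Ooep (also called Floped) encode KH-domain proteins of the subcortical maternal complex, a protein assembly that the egg passes to the embryo, and Dppa5a (Esg1) encodes a related KH-domain protein of pluripotent cells. In mouse ES cells Khdc3 is also known for a part in genome stability. Dppa3 (Stella) protects methylated DNA in the early embryo, restrains the methylation cofactor Uhrf1 and marks primordial germ cells. Dppa2 and Dppa4 encode SAP-domain chromatin proteins that act as a pair and are known in mouse ES cells as activators of genes of the 2-cell embryo. The transcription factors Esrrb, a nuclear receptor, and Sox2, of the HMG-box family, help to maintain pluripotency.

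The promoter windows of Khdc3 and Ooep are shown because the set of windows used here matched only these 2 of the 6 genes. Both genes encode partners in 1 complex, and their levels moved apart under the Sox2 hairpin. The windows are RefSeq sequence of build GRCm38.p6, each with 250 bases before the start site and 50 after it. Capitals mark CCTTGA, the reverse complement of TCAAGG, the first letters of the Esrrb element TCAAGGTCA. The Khdc3 window lies at chr9:73102148-73102447 on the plus strand, and the Ooep window at chr9:78378539-78378838 on the minus strand.
Khdc3: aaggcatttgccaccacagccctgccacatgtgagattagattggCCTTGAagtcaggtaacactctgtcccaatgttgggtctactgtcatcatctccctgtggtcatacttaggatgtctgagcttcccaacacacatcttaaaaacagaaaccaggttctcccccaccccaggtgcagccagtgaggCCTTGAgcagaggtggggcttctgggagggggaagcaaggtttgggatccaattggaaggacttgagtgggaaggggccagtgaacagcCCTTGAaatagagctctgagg
Ooep: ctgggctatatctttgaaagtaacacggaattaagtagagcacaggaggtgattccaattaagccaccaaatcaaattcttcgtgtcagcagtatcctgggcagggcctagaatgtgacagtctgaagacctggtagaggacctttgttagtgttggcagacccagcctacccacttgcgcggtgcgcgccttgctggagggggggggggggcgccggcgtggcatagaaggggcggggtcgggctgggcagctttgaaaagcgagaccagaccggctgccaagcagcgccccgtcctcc
The Khdc3 window held 3 matches of TCAAGG, at positions 46, 191 and 280 of its 300 bases, all on the reverse strand. At least 1 match of TCAAGG was found in 14.4% of 32851 windows, and 3 or more in 0.0761% of them. The match at position 46 overlaps 1 match of TCAAGGNCA, which begins at position 43 and is found in 1.62% of windows. These 2 letter strings were chosen after the Khdc3 window had been read. The full element TCAAGGTCA (in 0.423% of windows) and its shorter form AAGGTCA (4.72%), searched on both strands, were not among the letters of either window. Neither window held the Sox motif in the form AACAATG (3.78%) or its core AACAAT (10.7%) on either strand. Other forms of the Sox motif were not searched, so either window may hold them. The Ooep window also held no match of TCAAGG or TCAAGGNCA. A match is a string of letters and not a binding site, and binding was not measured here.

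The targeted genes were read first. Esrrb intensity was 12841 ± 546.5 (SD, n = 4 arrays) with the GFP hairpin, 2691 ± 77.5 with the Esrrb hairpin, 4804 ± 175.5 with the Sox2 hairpin and 3253 ± 142.6 in the dual group. Sox2 intensity was 795.3 ± 59.5, 495.0 ± 50.9, 513.1 ± 43.3 and 370.8 ± 22.8 in the same order. Each targeted gene was thus lower in all 3 knockdown groups than with GFP. The difference of the Sox2 probe between the Esrrb and the Sox2 hairpin was not called (log2 -0.10, SE 0.08, limma adjusted p = 0.383). All 7 ES cell markers (Pou5f1, Nanog, Sox2, Zfp42, Utf1, Tdgf1 and Sall4) were detected on every array of all 4 groups. Arrays A and B of a group differed from arrays C and D in 11286 to 12054 against 12994 to 13322 detected probes, and values within each set are given below where they bear on a result.

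Khdc3 was low wherever the Esrrb hairpin was present and high where only the Sox2 hairpin was. Its intensity on arrays A to D was 288.3, 270.9, 342.7 and 354.5 with the GFP hairpin and 59.5, 49.1, 84.9 and 81.0 with the Esrrb hairpin. It was 420.8, 398.1, 456.4 and 502.2 with the Sox2 hairpin and 102.3, 97.1, 120.2 and 100.8 in the dual group. The order was the same on arrays of every letter: lowest with Esrrb, then the dual group, then GFP, and highest with Sox2. No 2 of the 4 groups overlapped, and group means stood at 21.8% (Esrrb), 141% (Sox2) and 33.5% (dual) of the GFP mean. The gene was detected on all 16 arrays, although its values with the Esrrb hairpin are close to the lowest intensity of a detected probe, 16.8 to 43.7 on the different arrays, so a fold there rests on a dim signal.

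On the normalized log2 scale Khdc3 differed from GFP by -1.90 (SE 0.13) with the Esrrb hairpin, 0.60 with the Sox2 hairpin and -1.35 in the dual group, each with the same SE. Adding the Esrrb hairpin to the Sox2 hairpin gave -1.95 (dual against Sox2), beside -1.90 for the Esrrb hairpin alone. Adding the Sox2 hairpin to the Esrrb hairpin gave 0.55 (dual against Esrrb), beside 0.60 for the Sox2 hairpin alone. The interaction, the dual difference minus the sum of both single ones, was -0.05 (SE 0.18), and values from -0.21 to 0.11 were found under the alternative settings. These comparisons share arrays, so their likeness is not independent evidence. Among 8248 genes Khdc3 had the lowest log2 difference for dual against Sox2 and for Esrrb against Sox2 (-2.50), and the lowest but for Esrrb itself for Esrrb against GFP. On arrays A and B alone the differences from GFP were -2.03, 0.69 and -1.24 (Esrrb, Sox2, dual), and on C and D alone -1.76, 0.52 and -1.45. With median scaling in place of quantiles the rise with the Sox2 hairpin (0.59) and that of dual over Esrrb (0.56) no longer passed the call threshold. In the authors' deposited table of ratios the 3 differences from GFP were -2.08, 0.66 and -1.40.

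**Figure D1:**
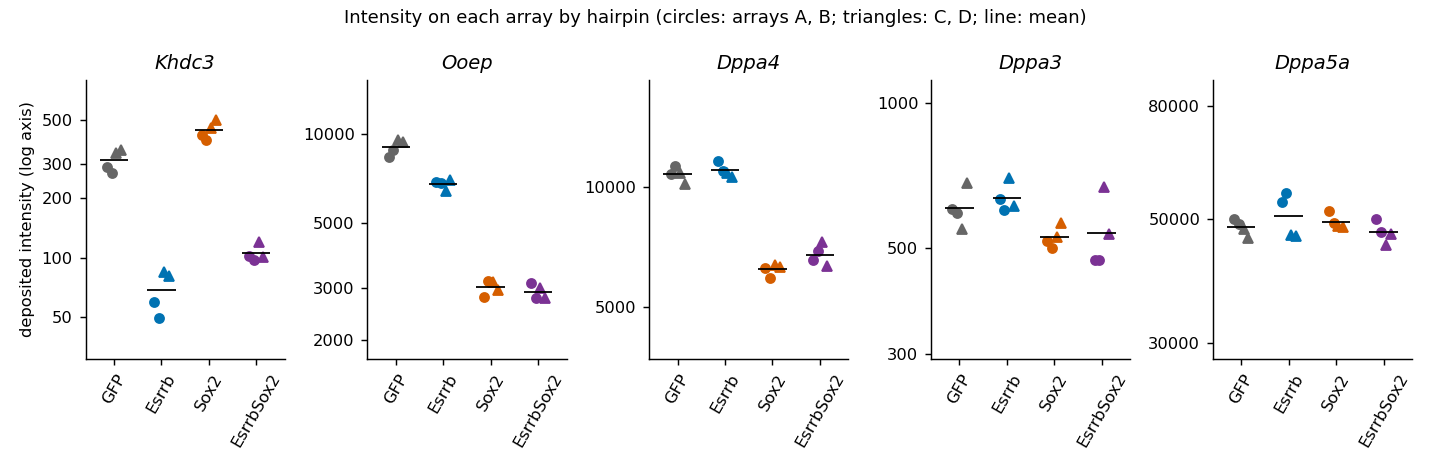
Deposited intensity of 5 genes on each of 16 arrays (log axis, a separate range per gene), by hairpin, with circles for arrays A and B, triangles for arrays C and D and a line at the group mean. Khdc3 sits between 49.1 and 84.9 with the Esrrb hairpin and between 398.1 and 502.2 with the Sox2 hairpin, whereas Ooep and Dppa4 are low in the Sox2 and dual groups.

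Ooep, the partner of Khdc3 in the maternal complex, showed a different order. Its intensity on arrays A to D was 8360.2, 8824.5, 9520.6 and 9350.0 with the GFP hairpin and 6858.3, 6830.0, 6411.8 and 6972.9 with the Esrrb hairpin. The Sox2 arrays read 2808.3, 3164.6, 3143.4 and 2951.3, and the dual arrays 3120.6, 2770.6, 3004.9 and 2785.7. All arrays of the 3 knockdown groups lay below all GFP arrays, the Sox2 and dual arrays lay far below the Esrrb arrays, and the Sox2 and dual groups overlapped. The means were 75.1% (Esrrb), 33.5% (Sox2) and 32.4% (dual) of GFP.

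Ooep differed from GFP by log2 -0.28 (SE 0.07) with the Esrrb hairpin, -1.37 with the Sox2 hairpin and -1.43 in the dual group. Dual against Sox2 was -0.06, dual against Esrrb -1.15 and the interaction 0.22 (SE 0.09). The small fall with the Esrrb hairpin was below the call threshold with median scaling (-0.32) and on arrays A and B (-0.20) or C and D (-0.35) alone. Without any normalization the interaction, 0.36, was called. Falls with the Sox2 hairpin ranged from -1.57 to -1.26 over the alternatives and were called in each. In bulk RNA, fewer cells that express a gene and less of its RNA per cell cannot be told apart.

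Dppa5a, the KH-domain gene beside Ooep on chromosome 9, had 2 probes at the top of the intensity scale in all groups. Its first probe read 50131.6, 49072.5, 48091.6 and 46255.3 on arrays A to D with GFP and 53795.0, 55739.9, 46876.9 and 46749.1 with the Esrrb hairpin. The Sox2 arrays read 51789.8, 49199.5, 48555.4 and 48403.1, and the dual arrays 50094.4, 47466.9, 44935.4 and 47111.8. All 4 groups overlapped in deposited intensity, with means of 105%, 102% and 98.0% of GFP (Esrrb, Sox2, dual). On the normalized log2 scale the GFP values, 15.443 to 15.55, lay below those of the Esrrb and Sox2 groups, 15.604 to 15.67 in each. This probe held ranks 1 to 9 of 25697 on the arrays, and 55739.9 is the highest value of the whole table. Quantile normalization sets the value of such a probe by its rank, so its log2 differences from GFP, 0.12 (SE 0.05), 0.12 and 0.07, say little beyond the rank. Whether the probe was saturated was not tested, and a difference at the top of the scale may be compressed. A second probe of Dppa5a gave means of 97.1% (Esrrb), 96.1% (Sox2) and 86.2% (dual) of GFP. The dual arrays of that probe, 41526.9 to 47669.7, all lay below the GFP arrays, 48627.1 to 54107.7, with a normalized log2 difference of -0.09 (SE 0.05), which was not called. The remaining probe was detected on no array. RefSeq lists the pseudogenes Dppa5b and Dppa5c on chromosome 9, and whether the probes also bind their RNA was not tested.

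Dppa4 fell in the groups with the Sox2 hairpin and not with the Esrrb hairpin. Its brightest probe read 10802.4, 11295.9, 10847.8 and 10204.2 on arrays A to D with GFP and 11653.8, 11012.8, 10841.9 and 10603.5 with the Esrrb hairpin. The Sox2 arrays read 6250.8, 5918.0, 6366.0 and 6274.9, and the dual arrays 6537.1, 6892.8, 7276.8 and 6331.1. The Sox2 and dual arrays were all below every GFP and Esrrb array, and the GFP and Esrrb arrays overlapped in deposited intensity. On the normalized log2 scale the Esrrb values, 13.366 to 13.52, lay above the GFP values, 13.144 to 13.321. The differences from GFP were log2 0.18 (SE 0.06, not called), -0.58 and -0.46, and dual against Sox2 was 0.12. A second probe of Dppa4 read 432.5 to 532.8 with GFP, 403.2 to 469.6 with Esrrb, 238.1 to 265.3 with Sox2 and 242.7 to 302.9 in the dual group, with log2 differences of -0.00, -0.73 and -0.66 (SE 0.08). Both probes were thus low in the same 2 groups. The remaining probe was too dim to use, detected on 1 array of the Sox2 and 1 of the dual group. For Dppa2, the partner of Dppa4 and its neighbour on chromosome 16, no level can be set beside these.

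Dppa3 showed no difference that was called in any of the 7 comparisons. Its intensity on arrays A to D was 601.4, 590.8, 547.8 and 681.6 with GFP and 632.0, 600.2, 699.4 and 611.4 with the Esrrb hairpin. The Sox2 arrays read 516.2, 499.1, 525.7 and 562.1, and the dual arrays 470.7, 470.8, 669.6 and 534.2. The Sox2 arrays lay below all Esrrb arrays but overlapped the GFP arrays, and the dual group had the widest spread of the 4. The differences from GFP were log2 0.19 (SE 0.09), -0.03 and -0.03, and without normalization between arrays the Sox2 value was -0.19. That setting moved the median of all genes by -0.10, -0.14 and -0.14 (Esrrb, Sox2 and dual against GFP). Dual against Esrrb was -0.22 and was called only without array C of the dual group (-0.30), among the settings tried. Esrrb against Sox2 was 0.22 and was called with arrays A and B against C and D as a block, and without array A or array C of the dual group.

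Counted over the 5 measured genes, 2 were called for Esrrb against GFP, where 11.6% of all genes were called (5.86% higher, 5.77% lower): Khdc3 and Ooep, both lower. For Sox2 against GFP 3 were called, with 43.2% of all genes (21.7% higher, 21.5% lower): Khdc3 higher, Ooep and Dppa4 lower. For dual against GFP 3 were called, all lower, with 44.4% of all genes (22.1% higher, 22.3% lower). For dual against Esrrb 3 were called (40.2% of all genes), for dual against Sox2 1, Khdc3 (6.41%), and for Esrrb against Sox2 3 (43.1%). The interaction was called for 0 of 5 genes (2 at an unadjusted p under 0.05, limma) and for 2.89% of all genes. The 5 genes' median differences from GFP were 0.13, -0.03 and -0.46 (Esrrb, Sox2, dual), beside 0.00, -0.00 and -0.01 over all genes. Since the genes were chosen with such values known, nothing is read from these counts.

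**Figure D2:**
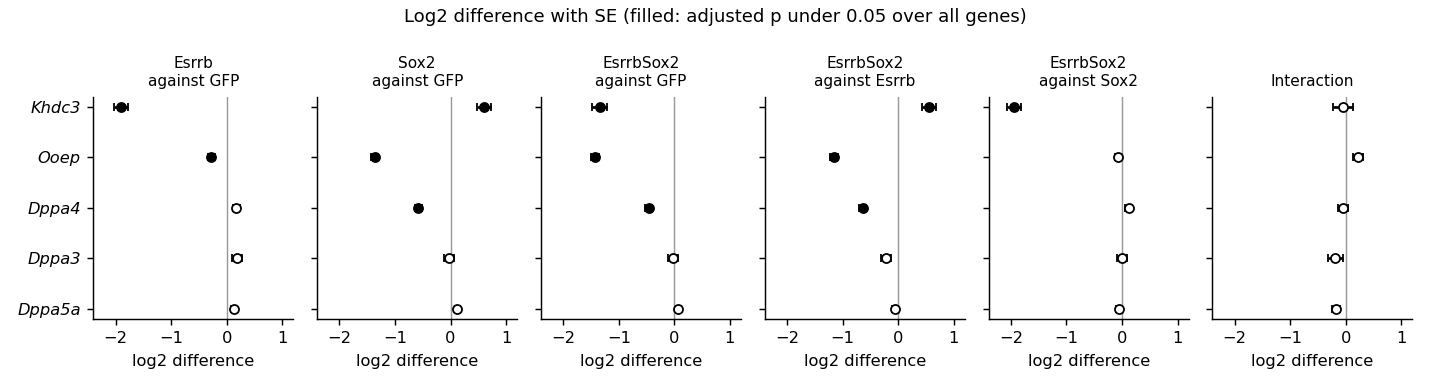
Normalized log2 difference with its SE for 5 genes (rows) in 6 comparisons (panels), filled where the adjusted p over all 8248 genes was under 0.05. Khdc3 is at -1.90, 0.60 and -1.35 against GFP and at -1.95 for dual against Sox2, and no gene is filled for the interaction.

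**Figure D3:**
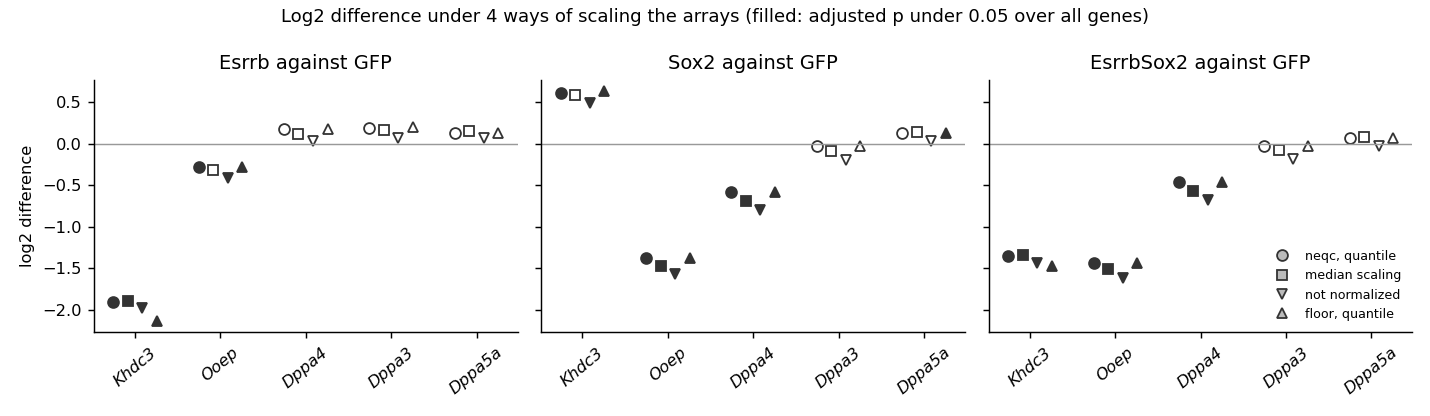
Normalized log2 difference from GFP of 5 genes under 4 ways of scaling the arrays (marker shapes), filled where called, for the 3 knockdown groups. Khdc3, Ooep and Dppa4 keep their direction from GFP with each scaling for every comparison called, while Ooep with the Esrrb hairpin and Khdc3 with the Sox2 hairpin are unfilled with median scaling.

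The nearest genes with a measured level on each side were found in the order of the reference gene table and tested in the same fit. Khdc3 lies on chromosome 9 directly between Rab27a, a GTPase gene of vesicle transport, and Rsl24d1, a gene of ribosome assembly. With the Esrrb hairpin neither passed the test (Rab27a log2 -0.11, limma adjusted p = 0.491, and Rsl24d1 -0.11, adjusted p = 0.421, n = 4 arrays per group). With the Sox2 hairpin both fell, Rab27a by 0.68 on the log2 scale (limma adjusted p = 2.24e-05) and Rsl24d1 by 0.42 (0.000421). Khdc3 itself was higher there. In the dual group Rab27a fell by 0.72 (limma adjusted p = 1.09e-05), and the smaller fall of Rsl24d1 (-0.24) was lost with median scaling.

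Ooep and Dppa5a are adjacent protein-coding genes on chromosome 9, but the nearest other genes with a measured level are farther off. On the lower side it is Gsta4, a glutathione transferase gene, 7 genes from Dppa5a and 8 from Ooep, and on the higher side Mto1, a gene of mitochondrial tRNA modification, 3 genes from Ooep and 4 from Dppa5a. Gsta4 fell with the Sox2 hairpin (log2 -0.87, SE 0.07, limma adjusted p = 9.06e-08) and in the dual group (-0.94, 3.27e-08), and was at 0.04 with the Esrrb hairpin (0.811). Mto1 fell in the dual group (-0.37, limma adjusted p = 0.00304), a call lost with median scaling and on arrays C and D alone. With the Sox2 hairpin Mto1 was at -0.22 (0.0519), which passed the threshold with the letter of the array as a block (0.0405). Directly beside Dppa3 on chromosome 6 lie Gdf3, a TGF-beta family gene of pluripotent cells, and Nanog. Gdf3 fell with the Sox2 hairpin (-1.30, limma adjusted p = 2.55e-08) and in the dual group (-1.09, 1.44e-07), and was at -0.02 with the Esrrb hairpin (0.925). Nanog fell in all 3 comparisons, by 0.52 on the log2 scale with the Esrrb hairpin, by 1.0 with the Sox2 hairpin and by 1.16 in the dual group (limma adjusted p = 0.00498, 2.76e-06 and 5.22e-07), of which the first was lost with median scaling and on either pair of arrays (A and B, C and D) alone. Dppa3 between them was at 0.19, -0.03 and -0.03. On chromosome 16 Nectin3, a cell adhesion gene 2 genes from Dppa4, and Dzip3, a ubiquitin ligase gene 7 genes from it, were higher with the Esrrb hairpin (0.41 and 0.53, limma adjusted p = 0.0214 and 0.00942), calls that median scaling removed. With the Sox2 hairpin neither was called (-0.17 for each), whereas Dppa4 was at -0.58.

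**Figure D4:**
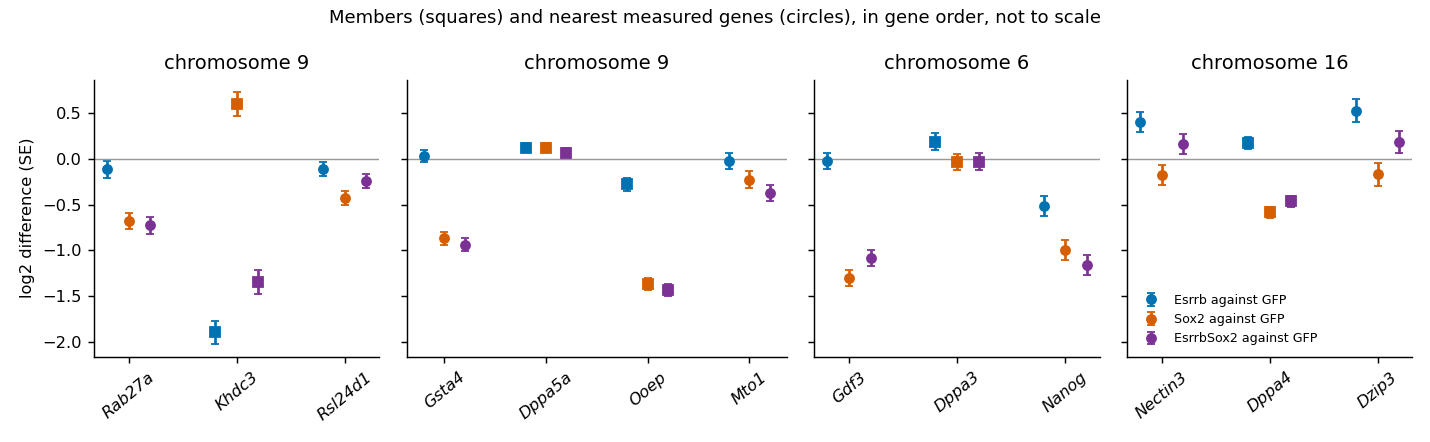
Normalized log2 difference from GFP with its SE for the measured genes (squares) and their nearest measured neighbours (circles), in gene order on chromosomes 9, 6 and 16 and not to scale, coloured by knockdown. Khdc3 stands at -1.90 with the Esrrb hairpin between neighbours at -0.11, and Dppa3 at -0.03 with the Sox2 hairpin between Gdf3 at -1.30 and Nanog at -1.0.

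Genes with a like pattern were ranked by Pearson's r of normalized log2 values over the 16 arrays, among 2681 genes whose group means ranged over at least 0.5. The arrays form 4 groups, so r reflects mainly the group means and is a description. Nearest to Khdc3 were Tob1 (r = 0.947), 2210409E12Rik (0.941) and Slc25a20 (0.936). Tob1, an antiproliferative gene, was at log2 -0.50, 0.18 and -0.32 from GFP (Esrrb, Sox2, dual), and 2210409E12Rik at -0.90, 0.26 and -1.02. Slc25a20, the mitochondrial carnitine carrier gene, was at -0.32, 0.20 and -0.25. All of these are smaller ranges than that of Khdc3. Nearest to Ooep were Rarg, a retinoic acid receptor gene (0.990), Itgb7, an integrin gene (0.984), and Pou5f1, the gene of the pluripotency factor Oct4 (0.981). Pou5f1 was at -0.03, -0.90 and -0.93 from GFP, beside -0.28, -1.37 and -1.43 for Ooep. Nearest to Dppa4 were Mylpf (0.972), Olfr985 (0.969) and Tdrd12, a gene of the piRNA pathway (0.968). For Dppa3 (Snx12 0.771, Snora65 0.741, Tsc1 0.718) and Dppa5a (Cbr3 0.772, Dock1 0.766, Syp 0.744) the best r values were lower, and the group means of these genes ranged over only 0.22 and 0.13. Among the 5 genes themselves Ooep and Dppa4 had r = 0.898, Khdc3 and Ooep -0.15, and Khdc3 and Dppa4 -0.49.

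Other genes of the maternal complex and the egg were hardly measurable in these cells. This list and those that follow were also chosen with earlier results of these data known. Their counts and p-values are therefore a description as well. Of 9 listed, 7 had a probe and 2 passed the filter, Tle6 and Padi6. Tle6, a transcriptional corepressor family member of the complex, fell in the dual group (log2 -0.75, SE 0.10, limma adjusted p = 2.56e-05), with 1 of 2 genes called beside 44.4% of all genes. It was at -0.27 with the Esrrb hairpin and at -0.13 with the Sox2 hairpin, neither of them called unless arrays were left without normalization, or, for the Esrrb hairpin, fitted with arrays A and B against C and D as a block. Padi6, an oocyte gene of the peptidylarginine deiminase family, was at 0.10, 0.01 and -0.02. The list's medians were -0.09, -0.06 and -0.38 from GFP, beside 0.00, -0.00 and -0.01 over all genes.

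Of 10 listed genes enriched in ES cells, 5 fell with the Esrrb hairpin, 10 with the Sox2 hairpin and 10 in the dual group, where 5.77%, 21.5% and 22.3% of all genes fell. Their medians were -0.30, -1.10 and -1.07, and the count for the Esrrb hairpin was 2 with median scaling and 3 on arrays A and B alone. Eras, which encodes a Ras-like GTPase, was at 22.9% of its GFP level in the dual group (log2 -2.13, limma adjusted p = 4e-09), and Zfp42 (Rex1) was at -1.54 (1.83e-07). Of 9 pluripotency factor genes 7, 7 and 9 fell in the 3 comparisons, among them Nr5a2, a nuclear receptor gene (-1.49 in the dual group, limma adjusted p = 9.72e-09). Nanog and Zfp42 are on both lists and fell in all 3 comparisons, so the 2 counts are not separate. Ooep and Dppa4 were low in the same 2 groups in which all 10 ES-enriched genes fell, Dppa3 and Dppa5a were not called there, and Khdc3 was higher with the Sox2 hairpin.

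Of 20 listed genes of the 2-cell stage, the class that Dppa2 and Dppa4 are known to activate, 11 were tested. With the Esrrb hairpin 5 rose and 1 fell, with the Sox2 hairpin 9 rose and 0 fell, and in the dual group 9 rose and 0 fell, with medians of 0.45, 1.13 and 0.79. Over all genes 5.86%, 21.7% and 22.1% rose and 5.77%, 21.5% and 22.3% fell in the same order. Tdpoz1 rose to 4.11 times its GFP level in the dual group (log2 2.04, SE 0.18, limma adjusted p = 3.27e-07) and Tdpoz5 to 3.81 times (1.93, 4.49e-09). The 5 Tdpoz genes on the list are near-identical copies, so probes may not tell them apart. Zscan4c (-0.05, 0.09 and 0.05 for Esrrb, Sox2 and dual) and Usp17lb (-0.24, 0.18 and 0.02) were not called in any of these comparisons. Dppa4 was at -0.58 and -0.46 in the Sox2 and dual comparisons, where 9 of the 11 tested genes were called higher, the 5 Tdpoz genes among them.

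Lists of DNA methylation and of germ cells were read beside Dppa3. Of 3 tested genes of DNA methylation, Dnmt3b rose with the Esrrb hairpin (log2 0.30, limma adjusted p = 0.00744), and Uhrf1 fell with the Sox2 hairpin (-0.25) and in the dual group (-0.32, 0.00704), all of them calls that were lost with median scaling. For Esrrb against GFP 0 of the 3 were also called without normalization and on either pair of arrays alone. For Sox2 against GFP 2 of the 3 were called in place of 1 with either block and without GFP array B, and 3 without normalization. There 0 were called with all probes kept, on either pair of arrays alone, or without GFP array D, Sox2 array A or Sox2 array D. For dual against GFP 2 were called without normalization or without GFP array B, and 0 on arrays C and D alone. The medians of the 3 were -0.14, -0.22 and -0.19. Of 6 tested germ cell genes 1 rose and 2 fell with the Esrrb hairpin, 1 rose and 1 fell with the Sox2 hairpin, and 3 fell in the dual group. Over all genes 11.6%, 43.2% and 44.4% were called in either direction in the 3 comparisons, and nothing is read from the germ cell counts. The germ cell medians were -0.19, 0.05 and -0.23. With either block, or without GFP array A, 4 in place of 2 were called for the Sox2 hairpin. There 1 was called with only probes detected on every array, and 0 on arrays A and B alone. With median scaling 0, 1 and 0 of the germ cell genes were called in the 3 comparisons. For the Esrrb hairpin 1 in place of 3 was called without any one of GFP arrays B and D, Esrrb arrays A, B and D, Sox2 arrays A, B and D, or dual arrays A and C. The same count was found with a floor of 16 in place of neqc, with all probes kept and on arrays C and D alone. For the dual group 1 in place of 3 was called with only probes detected on every array, or without GFP array B or C or dual array D. There 0 were called with all probes kept, on arrays C and D alone or without dual array B. The germ cell genes Dazl (-0.62 with the Esrrb hairpin, limma adjusted p = 0.0466) and Stra8 (-0.61 in the dual group, 0.0238) lost their calls with median scaling. Of 6 tested genes of DNA damage response, the process with which Khdc3 is linked in ES cells, 0 were called with the Esrrb hairpin, beside 11.6% of all genes. There 3 of the 6 had an unadjusted p under 0.05 (limma). For that hairpin 1 was called with either block, without normalization, on arrays A and B alone, without GFP array C or without dual array B. In each of the Sox2 and dual groups 3 fell, beside 21.5% and 22.3% of all genes. The medians of the 6 were 0.06, -0.39 and -0.38 in the 3 comparisons. From 6 genes no difference from all genes is read. Chek2, a checkpoint kinase gene, was at -0.92 with the Sox2 hairpin (limma adjusted p = 1.14e-05), and Parp1, a DNA damage sensor gene, at -0.57 in the dual group (2.88e-06).

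Most tested trophectoderm markers and some extraembryonic endoderm markers were higher in the Sox2 and dual groups, in which Ooep and Dppa4 were low. Fibroblast markers moved in no common direction. Of 8 tested trophectoderm markers (10 listed, all with a probe) 3 rose and 1 fell with the Esrrb hairpin, 6 rose with the Sox2 hairpin and 6 in the dual group, with medians of 0.23, 1.52 and 1.88. Over all genes 5.86%, 21.7% and 22.1% rose in the same order. Cdx2 (log2 -0.22 with the Sox2 hairpin, 0.26 in the dual group) and Tfap2c (-0.13 and -0.06) were not called in either of these groups. Hand1, 1 of the 6 that rose, was detected on no GFP array and passed the filter only through the Sox2 and dual groups. Its rise was at least 1.48 and 1.43 times there, and nothing is read from it. With median scaling 0 of the 8 were called for the Esrrb hairpin, and 1 without normalization or on arrays C and D alone. Plac1 reached 9.06 times its GFP level in the dual group (log2 3.18, SE 0.14, limma adjusted p = 2.6e-10) and Krt18, a keratin gene of epithelia, 6.83 times (2.77, 9.09e-12). The summed intensity of the list was 8595.7 to 9622.5 with GFP, 8098.5 to 8769.9 with Esrrb, 19254 to 23669.3 with Sox2 and 20117.4 to 26597.9 in the dual group. Of 5 tested extraembryonic endoderm markers 0, 2 and 2 rose, namely Dab2 (1.17 with the Sox2 hairpin, limma adjusted p = 4.87e-06) and Gata6 (0.61, 0.000618). Sox17, Sox7 and Pdgfra were not called, and the medians of the 5 were -0.06, 0.47 and 0.40. With the Esrrb hairpin 0 of the 5 were called and 2 had an unadjusted p under 0.05 (limma). There Gata6 was at log2 -0.26, which was called with the letter as a block (limma adjusted p = 0.0223). With that hairpin 1 of the 5 was called without GFP array B or Esrrb array D, and 2 with arrays A and B against C and D as a block. In the dual group 1 in place of 2 was called on arrays C and D alone. Their summed intensities were 497.9 to 683.1, 443.6 to 694.2, 909.8 to 1050.1 and 792.0 to 1083.2 in the 4 groups, and Foxa2 was detected on no array. Of 3 tested fibroblast markers 0 were called with the Esrrb hairpin (limma, 0 at an unadjusted p under 0.05). Thy1 fell with the Sox2 hairpin (-0.44, limma adjusted p = 6e-04) and in the dual group, and Col1a1 rose with the Sox2 hairpin (0.41, 0.0109), a call lost with median scaling. For the Sox2 hairpin 1 in place of 2 was also called without normalization and on either pair of arrays alone. The fibroblast list's medians were -0.14, 0.22 and 0.12, with summed intensities of 1224.6 to 1529.2, 1120.5 to 1312.4, 1058.7 to 1265.9 and 904.5 to 1237.2, and Col3a1 was detected on no array. Trophectoderm sums with the Esrrb hairpin did not exceed the range with GFP, although Krt8 (log2 0.39), Krt18 (0.42) and Plac1 (0.50) rose there and Tfap2c fell (-0.43). The part of all these markers in the values of Ooep, Dppa4 and Khdc3 was not tested.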

How the data were processed

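RNA of 4 hairpin groups of mouse ES cells was measured on 16 bead arrays. The authors deposited non-normalized intensities, per the file headers, with 20.9 to 25.2% of probes of an array below 0. Beside each, per the file headers, stands a detection p-value, which rises with intensity (lowest rank correlation 0.935) and was read as 1 minus p. A second table deposited by the authors holds processed ratios for each group and served as an alternative. The sources used here state neither its scaling nor the background step, the scanner software and the genome build.

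In R 4.3.3 with limma 3.58.1, neqc used the detection p-values to correct the background, then quantiles between arrays and log2 with an offset of 16. Kept probes had a detection p under 0.01 on the 4 arrays of 1 group or more (11591, of which 10926 had a symbol). Of 25697 probes, 23978 had 1 symbol and 0 several. The brightest kept probe stood for a gene, which left 8248 genes, 1992 of them with several kept probes. limma (lmFit, eBayes) fitted 1 mean per group. The 7 comparisons were called where p, adjusted by Benjamini-Hochberg over 8248 genes, was under 0.05. The pipeline was tested on simulated data with known changes. The number of arrays limits the precision.

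The members, lists and rules were chosen with earlier results of these data known. Named genes were the members, both targets, up to 2 called genes of each list with the largest differences from GFP, the 3 genes most like each member by Pearson's r and the nearest measured neighbours. Alternatives were other scalings, background steps and filters, the mean of probes, blocks, subsets of arrays and leaving out each array.

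Arrays of 1 letter deviated together (24 pairs, r 0.143 to 0.446), as did arrays of other letters within A and B or within C and D (0.223 to 0.45), whereas A or B against C or D gave -0.45 to -0.139. Deviations were taken from group means, so the negative r between the sets follows from the positive r within them. Likeness was no higher within a letter (median r 0.323) than between letters of a set (0.333). The letter, and A and B against C and D, were each also used as a block. Promoter windows came from RefSeq (GRCm38.p6).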

Additional observations from a re-analysis of the deposited data

Results flagged for a closer look

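The values of each measured gene were checked within each group for 1 array far from the other 3. Of 20 groups of arrays, 2 had such an array, both for Dppa5a, and chance gives about 1 in 20. Dppa5a read 15.67 on array B of the Esrrb group, where the other 3 arrays read 15.604, and 15.67 on array A of the Sox2 group, with the others again at 15.604 (normalized log2). Quantile normalization assigns 1 value per rank at the top of the scale, and these values are ranks in that sense.

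Several genes named beside these had an interaction past the threshold, so the dual group differed from the sum of both single knockdowns (limma, n = 4 arrays per group). It was 1.55 for Esrrb itself (adjusted p = 2.8e-07), 0.75 for Zfp42 (adjusted p = 0.0411), -1.03 for Tdpoz1 (adjusted p = 0.0444), -0.93 for Tdpoz5 (adjusted p = 0.00558), -1.69 for Cbr3 (adjusted p = 3.35e-06) and -0.51 for Syp (adjusted p = 0.0242). None of the 5 measured Khdc3, Ooep and Dppa genes was called for the interaction under the main setting.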

How the results depend on the processing

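Over 35 values (5 genes, 7 comparisons) and 26 alternatives, 898 of 910 values kept their call and their direction where called, 5 lost the call, 7 gained it and 0 called values reversed. The authors' deposited ratios, which carry no call, are not among these 26 and are given at the end. The replicate block, with the letter of the array as a block, changed no call of Khdc3, Ooep, Dppa3, Dppa4 or Dppa5a. Among other named genes it added Mto1 and Stra8 for Sox2 against GFP and Gata6 (lower) for Esrrb against GFP, and changed no other call of a named gene. Of these genes 1 in place of 2 was called for Esrrb against GFP with median scaling, on arrays A and B alone and on arrays C and D alone, Ooep being lost in each. For the interaction 1 was called in place of 0 without normalization (Ooep). Dppa5a was called for Sox2 against GFP (0.13 and 0.12) with a floor of 16 in place of neqc and without array B of the dual group.

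Counts over all genes moved more. With median scaling the calls were 201 for Esrrb against GFP (959 in the main setting), 1622 for Sox2 against GFP (3565), 1844 for dual against GFP (3663), 1289 for dual against Esrrb (3312), 48 for dual against Sox2 (529), 1513 for Esrrb against Sox2 (3552) and 25 for the interaction (238). On arrays A and B alone they were 325, 2156, 2019, 100, 2225 and 25 in that order without dual against GFP, and on arrays C and D alone 480 for Esrrb against GFP, 110 for dual against Sox2 and 36 for the interaction, fits with fewer arrays. With all probes kept, 326 were called for dual against Sox2 and 127 for the interaction. With arrays A and B against C and D as a block these were 813 and 432, and without normalization the interaction had 367. Leaving out 1 array gave 723 to 1092, 3181 to 3791, 3318 to 3632, 2888 to 3361, 333 to 571 (lowest without Sox2 array B), 3110 to 3769 and 149 to 261 (lowest without GFP array B) in the order of the first list, and 2 to 2, 3 to 4, 3 to 3, 3 to 4, 1 to 1, 3 to 4 and 0 to 0 of the 5 genes. The cause of the other shifts was not tested.

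Without normalization the share of higher among called genes was 18.2%, 28.3% and 29.9% (Esrrb, Sox2, dual against GFP) in place of 50.4%, 50.2% and 49.8%. It was 34.3% for Esrrb against GFP with median scaling. For dual against Sox2 it went from 49.9% to 35.4% with median scaling, and for the interaction from 55.9% to 85.3% without normalization, where the median of all genes was 0.12. Probes of Dppa5a lie at the top of the scale and Khdc3 with the Esrrb hairpin lies near the detection limit, which limits what their folds can show.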

Other observations

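Of the other genes that share the Khdc or Dppa name in the reference table, Khdc4, an RNA-binding splicing gene, was the only tested one that is not described above. It was at log2 0.11, -0.03 and 0.00 from GFP (Esrrb, Sox2, dual; SE 0.08), not called in any of the 7 comparisons by limma. Dppa1 and Khdc1c had probes that did not pass the detection filter.

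The log2 differences from the authors' deposited table of ratios were -0.27, -1.42 and -1.45 for Ooep and 0.18, -0.64 and -0.50 for Dppa4 (Esrrb, Sox2, dual against GFP), beside -0.28, -1.37 and -1.43, and 0.18, -0.58 and -0.46, computed here. For the interaction the same table gave 0.01 for Khdc3, beside -0.05 here. Other values lay farther apart. For Dppa5a the deposited ratios gave 0.21, 0.19 and 0.14 from GFP, beside 0.12, 0.12 and 0.07 here, and -0.26 for the interaction, beside -0.18. For Khdc3 they gave -2.74 for Esrrb against Sox2, beside -2.50.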
